A study of Mus musculus with 9 samples.

Results

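The Hox genes are the 39 genes of the mouse array table whose symbol is Hoxa, Hoxb, Hoxc or Hoxd followed by digits only, out of 22360 genes with a symbol. The array held 11 Hoxa genes on chromosome 6, 10 Hoxb genes on chromosome 11, 9 Hoxc genes on chromosome 15 and 9 Hoxd genes on chromosome 2. Each was measured by 1 probe set, so no choice between probe sets arose, and all 39 symbols matched the RefSeq name of the probe set's accession.

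The 9 arrays measured total RNA of 3 groups of cultured mouse cells, with 3 arrays a group. The ESC group was an embryonic stem cell line from 3.5-day blastocysts. The D5 and D10 groups were cell lines re-derived from mouse bone marrow 5 and 10 days after such cells had been transplanted: marrow cells that carried green fluorescent protein were sorted, and their colonies were expanded. All 3 groups carry the strain label C57BL/6×Oct4/EGFP transgenic OG2, with a CBA cross whose other name differs from sample to sample and is not used here; Oct4/EGFP is a reporter that follows Oct4 (Pou5f1), and all were grown on feeder cells in stem cell medium, so the arrays may also hold RNA of the feeder cells. The design text names 1 re-derived line for each day (No.2 for D5 and Sorted for D10), the labels call the replicates biological, and nothing says how many animals or separate lines stand behind them, so the p-values below measure the spread between these samples, which may be technical.

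Hox genes encode homeodomain transcription factors and lie in 4 clusters. In the embryo they are switched on in the order in which they lie, with low paralogue numbers towards the head and high numbers towards the tail and the ends of the limbs, and fibroblasts of adult tissue keep a pattern of active Hox genes that reflects where in the body they came from. In embryonic stem cells the clusters are held silent, largely by Polycomb proteins.

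D10 replicates 1 and 3 stood closer to each other than any other pair of arrays in a group. Their difference had an SD of 0.0686 on the log2 scale over 8292 probe sets with a mean above 6, against 0.154 to 0.201 in the other 8 pairs. No Hox gene was among those probe sets. Because of this closeness, D10 replicates 1 and 3 were averaged and counted as 1 sample. This leaves D10 with n = 2, and D10 means below are over those 2 samples. The array medians ran from 4.45 to 4.53. A background level of 3.71 on the log2 scale was taken from 1397 probe sets of odour and pheromone receptors, genes largely confined to sensory tissue, as their 95th percentile. The interquartile range of the arrays ran from 3.16 to 3.36 and split the groups: it was 3.29 in ESC replicate 1, 3.36 in D5 replicate 2 and 3.36 in both D10 replicates 1 and 3, and at most 3.24 in the other arrays.

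The results turn on 5 Hox genes that were higher in D10 than in ESC: Hoxd13, Hoxa5, Hoxb9, Hoxc8 and Hoxa11. RefSeq promoters (build GRCm38.p6, 250 bases before to 50 after the start of the gene) were held for 22 of the 39 Hox genes and for 3 of these 5, and those 3 are shown because they are the start sites of genes that changed. Capitals mark matches on either strand to CCAAT, a box near many start sites, to TATAAA, the core of a TATA box, and to AGGTCA, the half-site of nuclear receptors. The Hoxd13 promoter is chr2:74667975-74668274 on the plus strand, the Hoxa5 promoter chr6:52204538-52204837 on the minus strand and the Hoxa11 promoter chr6:52245761-52246060 on the minus strand.
Hoxd13: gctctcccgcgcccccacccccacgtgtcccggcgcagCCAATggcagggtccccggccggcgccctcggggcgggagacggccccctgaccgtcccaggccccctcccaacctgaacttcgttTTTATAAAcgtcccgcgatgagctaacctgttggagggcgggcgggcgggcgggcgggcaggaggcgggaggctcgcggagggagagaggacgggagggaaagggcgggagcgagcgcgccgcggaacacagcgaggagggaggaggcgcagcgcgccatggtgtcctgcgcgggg
Hoxa5: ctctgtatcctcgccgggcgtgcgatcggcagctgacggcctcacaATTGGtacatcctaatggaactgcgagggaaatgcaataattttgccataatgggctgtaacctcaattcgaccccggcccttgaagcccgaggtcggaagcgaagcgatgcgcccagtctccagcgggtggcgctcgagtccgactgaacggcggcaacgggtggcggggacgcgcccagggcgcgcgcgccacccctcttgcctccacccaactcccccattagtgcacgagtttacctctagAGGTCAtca
Hoxa11: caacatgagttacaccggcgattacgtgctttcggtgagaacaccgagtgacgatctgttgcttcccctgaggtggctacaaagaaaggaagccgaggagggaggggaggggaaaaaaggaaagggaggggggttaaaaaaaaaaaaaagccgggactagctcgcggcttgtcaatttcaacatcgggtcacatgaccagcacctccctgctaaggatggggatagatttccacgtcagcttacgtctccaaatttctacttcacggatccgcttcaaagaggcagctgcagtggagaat

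These 3 promoters differed in their content of CpG, the dinucleotide whose clusters mark many developmental promoters. The Hoxd13 promoter held 37 CpG, a number that 5.58% of 32841 promoters reach, the Hoxa5 promoter held 29 (12.9%) and the Hoxa11 promoter 15 (34.6%). The median was 14.5 over the 24 promoters of the Hox genes, which ranged from 4 to 45, and 7 over all promoters. The letters CCAAT occurred in 15 of the 22 Hox genes and in 37.4% of all promoters, AGGTCA in 7 and 16.3%, TATAAA in 4 and 13.6%, and GGGCGG, the letters of a GC box, in 10 and 35.7%. The Hoxd13 promoter held 1 CCAAT, overlapping matches to TATAAA on both strands and 7 GGGCGG, which are not capitalised. The Hoxa5 promoter held 1 CCAAT on the opposite strand and 1 AGGTCA. Of these letters, and of TGATTNAT and TGACAG, which stand for joint Hox-Pbx and Meis binding and occurred in 2 Hox genes each (3.22% and 19.2% of all promoters), none was found in the Hoxa11 window.

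Whether the Hox clusters were on at all was asked first. In ESC 18 of 39 Hox genes had a mean above the background level, in D5 21 and in D10 26. The array medians of 4.45 to 4.53 were also above this level, so most probe sets exceeded it on every array. A mean above it therefore does not by itself show that a Hox gene was on. All 9 arrays were above it for 15 genes, some arrays for 16 and none for 8. The group means of the 39 genes ran from 2.77 to 6.04. Of the genes below the level in ESC, 8 were above it in D10, and 0 went the other way. How many of all probe sets crossed it was not computed, so these 8 do not show a change particular to Hox genes. The counts depend on where the level is set: with the 99th percentile of the receptor probe sets (4.78) they were 4, 7 and 9, and with the 90th (3.20) 33, 36 and 36.

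The median over the 39 Hox genes was 3.53, 3.72 and 3.75 in the ESC arrays, 3.89, 3.73 and 3.83 in the D5 arrays and 3.97, 3.99 and 3.97 in the D10 arrays. The D10 arrays were thus above all others, and the D5 arrays overlapped the ESC arrays. The receptor probe sets, by contrast, had medians between 1.92 and 2.00 on all 9 arrays. In bulk RNA, fewer cells of a type and less RNA per cell cannot be told apart.

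**Figure D1:**
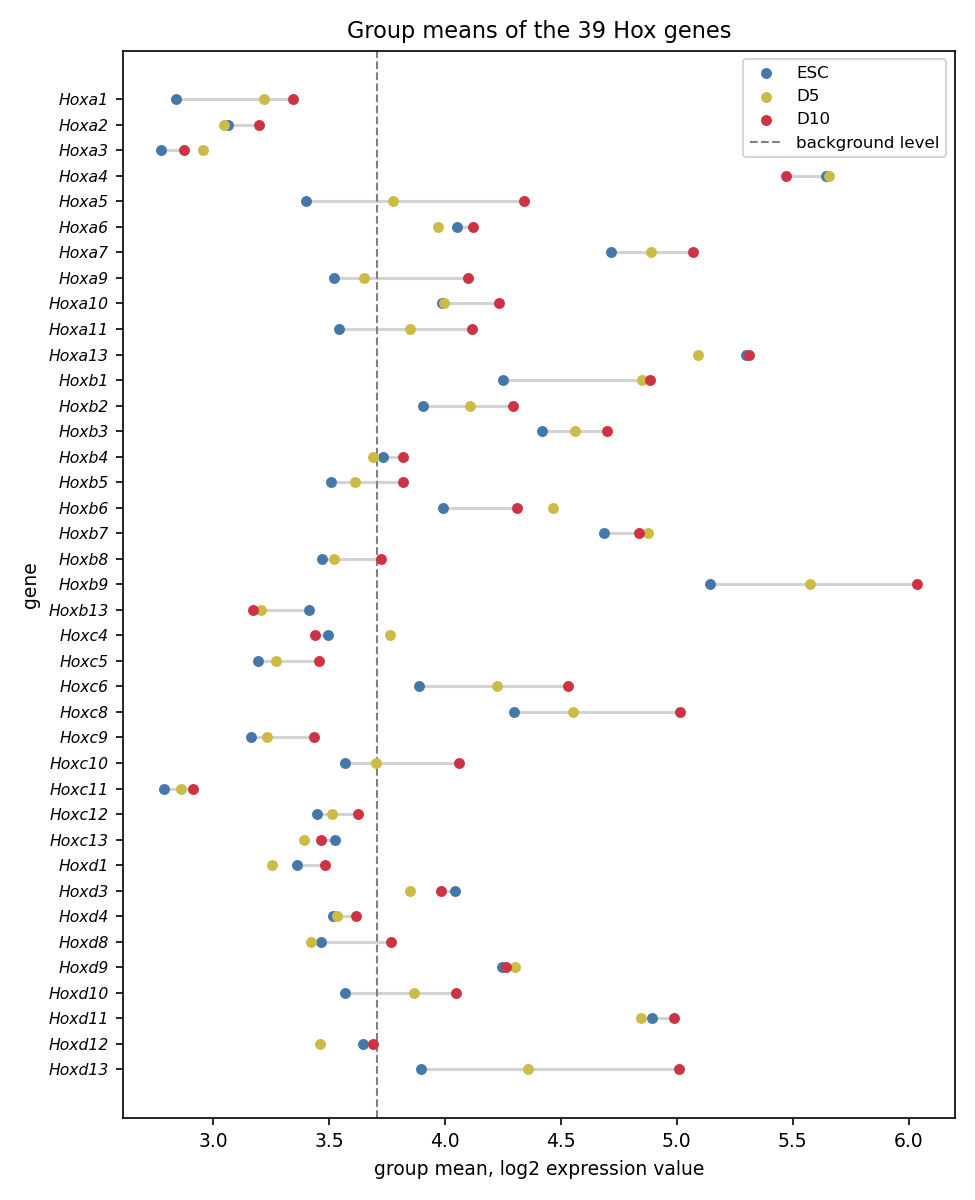
Mean log2 level of each of the 39 Hox genes in ESC, D5 and D10 by cluster, with a grey line joining ESC and D10 and the dashed line at the background level of 3.71; D10 means average replicates 1 and 3 first. Most genes lie near the dashed line and move little, and Hoxd13, Hoxa5, Hoxb9, Hoxc8 and Hoxa11 have D10 means above their ESC means by 0.57 to 1.11.

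In D10, 5 of the 39 Hox genes rose against ESC, none fell and 34 did not pass the test (limma with Benjamini-Hochberg adjustment over 28853 probe sets, adjusted p under 0.05). That is 12.8% of the Hox genes, where 5.32% of all probe sets rose, 3.33% fell and 8.65% passed in either direction. The median log2 change of the 39 genes was 0.25, that of all probe sets -0.02, and the change was above 0 in 34 of the 39 and in 44.5% of all probe sets. Leaving out D10 replicate 2 leaves D10 with 1 sample, which is then assumed to vary like the other groups; in that fit 2 Hox genes passed, the median was 0.086, and the number of all probe sets that passed was 1188 in place of 2496. D10 replicate 2 read higher than both other D10 arrays in 21 of the 39 Hox genes. Since replicates 1 and 3 were close to each other, replicate 2 will often be the highest or the lowest of the 3. The share over all probe sets was not computed, so the count says nothing particular to Hox genes. Without ESC replicate 1 the median was 0.17.

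Hoxd13, at the tail end of its cluster and required for digits and genitalia, changed most. It read 3.96, 3.96 and 3.78 in the ESC arrays, 4.13, 4.56 and 4.38 in D5 and 4.89, 4.99 and 5.16 in D10. Each group lay wholly above the one before. The mean was 3.90 ± 0.10 in ESC (SD, n = 3) and 5.01 ± 0.03 in D10 (SD, n = 2). The log2 change was 1.11 (95% interval 0.81 to 1.41, limma adjusted p = 0.00129) or 2.16-fold. That D10 SD sets replicate 2 against the average of replicates 1 and 3, which themselves read 4.89 and 5.16. It therefore understates the spread of the D10 arrays for Hoxd13. Against ESC the D5 mean of 4.36 ± 0.21 (n = 3) was higher by 0.46 on the log2 scale without passing the test (limma adjusted p = 0.0732); with D5 replicate 1 left out it did pass. Hoxd13 was also the only Hox gene in the authors' deposited table of 461 selected probe sets, which gives it intensity means of 14.9 in ESC, 20.6 in D5 and 32.4 in D10, and a ratio of D10 to ESC of 2.17.

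Hoxb9, a posterior trunk gene that takes part in patterning ribs and mammary gland, read 5.18, 5.33 and 4.93 in ESC, 5.45, 5.45 and 5.83 in D5 and 6.12, 5.95 and 6.13 in D10. The D5 arrays lay above the ESC arrays and below the D10 arrays without overlap. It rose by 0.89 in D10 (95% interval 0.53 to 1.25, limma adjusted p = 0.00996), which is 1.86-fold, from 5.14 ± 0.20 (SD, n = 3) to 6.04 ± 0.13 (SD, n = 2). With D10 replicate 2 left out, and so 1 D10 sample, the change was 0.98 and its limma adjusted p 0.0501.

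Hoxc8, which patterns the thoracic skeleton and motor neurons of the forelimb, read 4.11, 4.50 and 4.28 in ESC, 4.57, 4.49 and 4.60 in D5 and 5.01, 4.92 and 5.21 in D10. D5 overlapped ESC, and D10 lay above both. The rise in D10 was 0.72 (95% interval 0.43 to 1.0, limma adjusted p = 0.00954), or 1.64-fold.

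Hoxa11, needed for forearm and lower leg bones and for the uterus, read 3.58, 3.59 and 3.46 in ESC, 4.0, 3.71 and 3.83 in D5 and 4.03, 4.16 and 4.11 in D10. All ESC arrays were below the background level, and all D10 arrays were above it and above every D5 array. With the ESC side set at that level, the D10 mean was at least 1.33-fold higher; the measured change was 0.57 on the log2 scale (95% interval 0.33 to 0.82, limma adjusted p = 0.0130). With D10 replicate 2 left out, and so 1 D10 sample, the change was 0.53 and did not pass (limma adjusted p = 0.0895).

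Hoxa5, which acts in lung and cervical skeleton and is a landmark of the central part of its cluster, read 3.41, 3.05 and 3.74 in ESC, 4.07, 3.46 and 3.79 in D5 and 4.18, 4.39 and 4.39 in D10. In ESC 1 of 3 arrays exceeded the background level. D5 overlapped ESC, and D10 stood above both. The rise of 0.94 (95% interval 0.44 to 1.44, limma adjusted p = 0.0335) had the widest interval of the 5. It did not pass without D10 replicate 2 (1 D10 sample; change 0.89, limma adjusted p = 0.173), ESC replicate 1 (0.95, 0.0880), ESC replicate 2 (0.76, 0.0803) or D5 replicate 3 (0.94, 0.0561), and over all alternatives the change ran from 0.76 to 1.11. In RefSeq the Hoxa5 gene overlaps the span of Hoxa3, whose own change was 0.10, and the files do not say which exons the probes match.

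**Figure D2:**
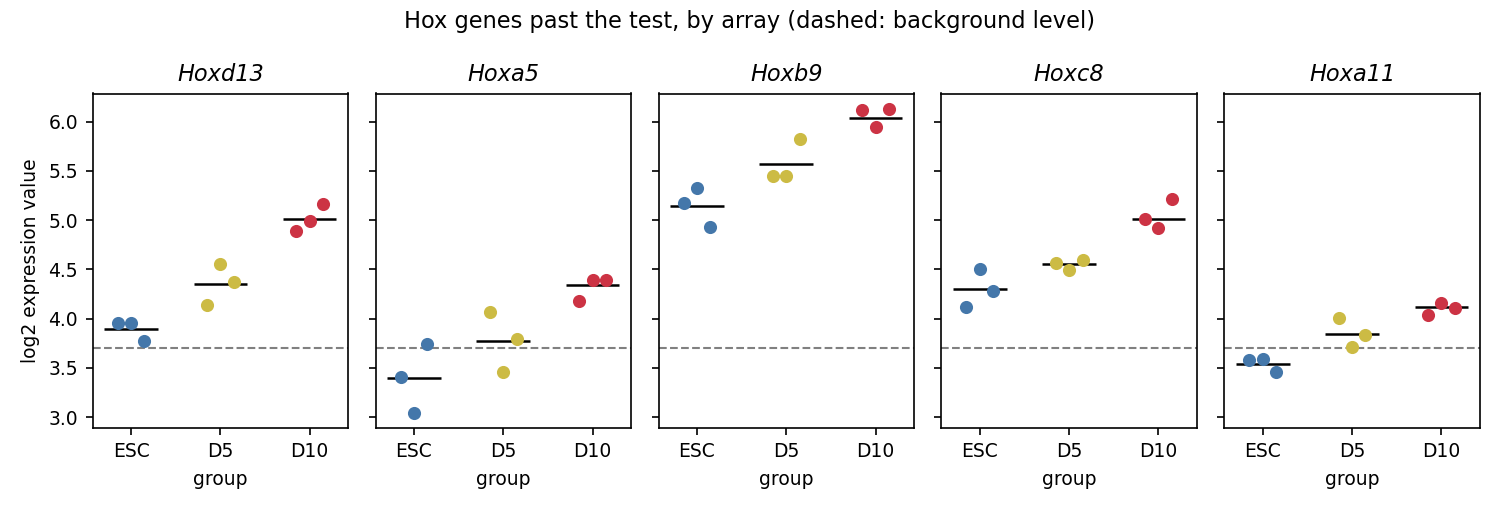
Log2 level on each array of the 5 Hox genes that rose in D10 against ESC, with a black line at each group mean (D10 replicates 1 and 3 averaged first) and a dashed line at the background level of 3.71. The D10 points of each gene lie above all ESC and D5 points, while D5 overlaps ESC in Hoxc8 and Hoxa5.

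The genes just short of the threshold were Hoxd10 with a log2 change of 0.48 (limma adjusted p = 0.0630), Hoxa9 with 0.58 (0.0648), Hoxc6 with 0.64 (0.0721) and Hoxb2 with 0.39 (0.0900). All of them were higher in D10. At an unadjusted p under 0.05, 11 Hox genes were higher in D10 and none lower, where 10.4% of all probe sets were higher and 21.2% passed in either direction. Every D10 array was above every ESC array for 12 Hox genes and below for 1, against 14.9% and 16.4% of all probe sets.

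The 5 genes did not form a block along any cluster. They came from all 4 clusters, 2 from Hoxa and 1 from each other. Of the central genes, with paralogue numbers 4 to 8, 2 of 15 rose, and of the posterior genes, 9 to 13, 3 of 16. None of the 8 anterior genes, 1 to 3, passed, with a median change of 0.21; the median was 0.21 in the posterior genes too and 0.26 in the central genes. By cluster the median was 0.25 in Hoxa, 0.30 in Hoxb, 0.26 in Hoxc and 0.10 in Hoxd. Differences between clusters or classes were not tested.

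The neighbours of the 5 genes on the array did not pass the test. Hoxd12, next to Hoxd13, had a log2 change of 0.04 in D10. Evx2, a homeobox gene that flanks Hoxd13 on its other side and is named here outside the rule for named genes, had -0.20. Hoxb8 and Hoxb13, on either side of Hoxb9, had 0.25 and -0.24. Hoxa4 and Hoxa6, around Hoxa5, had -0.17 and 0.07, and Hoxa10 and Hoxa13, around Hoxa11, had 0.25 and 0.01. Hoxc6 and Hoxc9, around Hoxc8, had 0.64 and 0.27. Of these neighbours, Hoxb13 and Hoxc9 were above the background level on none of the 9 arrays.

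Paralogues, the genes at the same position in the other clusters, did not pass either. Beside Hoxd13 with 1.11, Hoxa13 had 0.01, Hoxb13 -0.24 and Hoxc13 -0.06. Beside Hoxa5 with 0.94, Hoxb5 had 0.31 and Hoxc5 0.26. Beside Hoxb9 with 0.89, Hoxa9 had 0.58, Hoxc9 0.27 and Hoxd9 0.02. Hoxb8 and Hoxd8 had 0.25 and 0.30 beside Hoxc8, and Hoxc11 and Hoxd11 had 0.13 and 0.10 beside Hoxa11. Group 13 thus spanned the range from the highest to the lowest change of all 39 genes. Hoxb13, Hoxc13, Hoxc5, Hoxc9 and Hoxc11 were above the background level on none of the 9 arrays. Their values are differences near the floor and may miss a change.

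**Figure D3:**
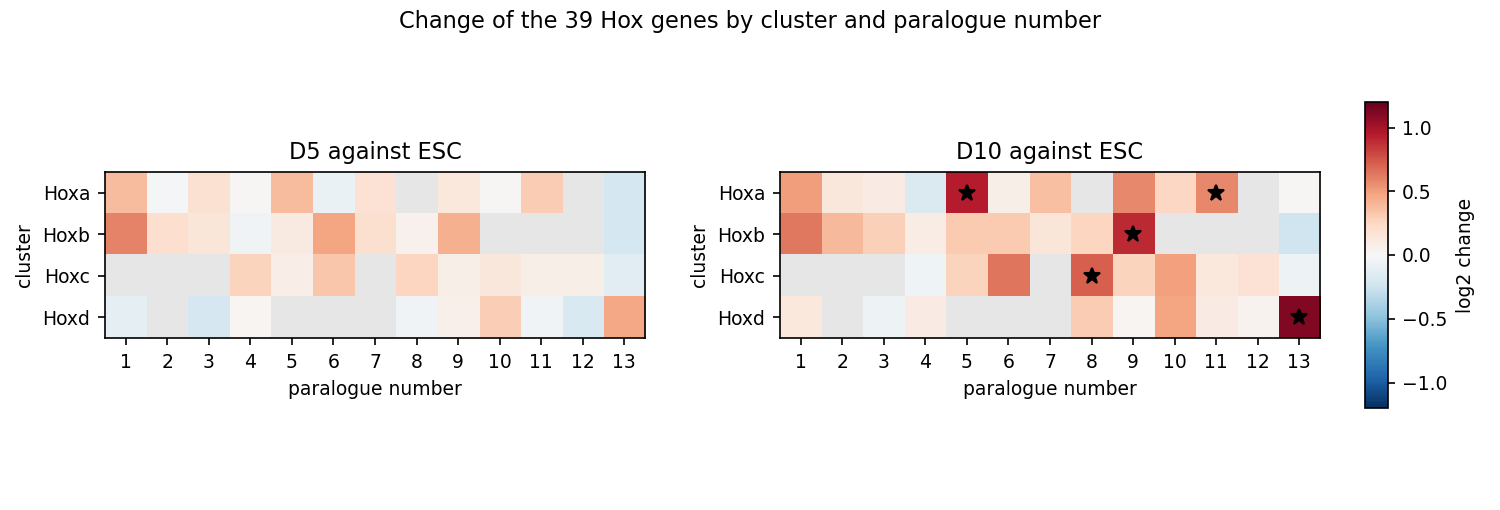
Log2 change of each Hox gene by cluster (rows) and paralogue number (columns), for D5 against ESC and for D10 against ESC. Stars stand where the limma adjusted p was under 0.05, and grey where the array has no gene. The 5 stars, Hoxd13, Hoxa5, Hoxb9, Hoxc8 and Hoxa11, all stand in D10 against ESC and lie in scattered positions with paralogue numbers from 5 to 13.

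In D5, none of the 39 Hox genes passed against ESC, where 3.87% of all probe sets did, 2.36% higher and 1.5% lower. The changes ran from -0.21 to 0.60 with a median of 0.08, against -0.01 over all probe sets, and 28 of 39 were above 0, against 46.9% of all probe sets. With 1 array left out the median ran from 0.034 to 0.13. At an unadjusted p under 0.05, 5 Hox genes were higher in D5 and none lower, against 16.6% of all probe sets in either direction and 8.31% higher. Every D5 array lay above every ESC array for 6 Hox genes, against 10.7% of all probe sets, and below for 1, against 11% of them. Of the genes that did not pass, Hoxb1, a hindbrain gene, had the highest change: its mean was 4.25 ± 0.39 in ESC (SD, n = 3) and 4.85 ± 0.27 in D5 (SD, n = 3), a difference of 0.60 (limma adjusted p = 0.182). It was 4.88 ± 0.23 in D10 (SD, n = 2).

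Between D10 and D5, none of the 39 passed, where 0.215% of all probe sets did, 0.194% higher and 0.0208% lower. That share is 62 probe sets, and 4 without D10 replicate 2, 4 without D5 replicate 1, 6 without D5 replicate 3 and 2 with only those 2 groups in the fit. The differences had a median of 0.18, against -0.00 over all probe sets, and ran from -0.32 for Hoxc4 to 0.65 for Hoxd13 (limma adjusted p = 0.103). Without D10 replicate 2 the median was 0.091. At an unadjusted p under 0.05, 7 Hox genes were higher in D10 and 1 was lower, against 9.75% of all probe sets in either direction and 5.58% higher. Every D10 array lay above every D5 array for 10 Hox genes and below for 1, against 9.87% and 8.84% of all probe sets. The D5 mean lay between the ESC and D10 means for 23 of 39 genes. The share over all probe sets was not computed, so this count says nothing particular to Hox genes. The comparisons with ESC share the ESC arrays, so their values for a gene are not independent of each other.

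Hox proteins bind DNA together with TALE-class homeodomain partners of the Pbx, Meis and Pknox families. Of 9 such genes, 4 rose in D10, with a median change of 0.34, and 3 rose in D5, with a median of 0.27; none fell, where 5.32% of all probe sets rose in D10 and 2.36% in D5. Meis2 read 3.54, 3.18 and 3.12 in ESC, below the background level, 4.49, 4.46 and 4.61 in D5 and 5.35, 4.99 and 5.21 in D10. The groups did not overlap, and its D10 mean was at least 2.69-fold higher than the background level (log2 change 1.85, limma adjusted p = 0.000213). Meis1 rose by 0.66 in D5 (limma adjusted p = 0.0147) and 0.92 in D10 (0.00250). Pbx3 rose by 0.68 in D10 (0.00823) and had 0.33 in D5 without passing.

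Hox clusters are opened in the embryo by caudal factors and retinoic acid. Of 19 genes of these inputs, 7 rose in D10 (5.32% of all probe sets) and 3 in D5 (2.36%), and none fell; the count in D10 was 2 without D10 replicate 2 and 4 without ESC replicate 1 or ESC replicate 2. Of all probe sets 1536 rose in D10 in the main fit, 1134 without ESC replicate 1 and 1141 without ESC replicate 2. The genes of these inputs named by the rule were carriers and enzymes of retinoids. Crabp1, a retinoic acid binding protein, rose by 0.81 in D5 (limma adjusted p = 0.00194) and 1.84 in D10 (4.97e-05). Crabp2, its relative, rose by 0.57 in D5 (0.00841) and by 0.51 in D10 (0.0122). Aldh1a1, which makes retinoic acid, and Dhrs3, which reduces retinal, passed in D10 with 0.62 each (0.0283 and 0.0447), with all ESC arrays of Aldh1a1 below the background level and its D10 mean at least 1.11-fold above it. The caudal genes, named here outside the rule for named genes, did not pass: Cdx1, Cdx2 and Cdx4 had changes of 0.10, -0.31 and -0.10 in D10.

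Among 25 chromatin regulators of the clusters, chiefly Polycomb and trithorax group genes, 7 fell and 1 rose in D10, with a median of -0.15, and 1 fell in D5. Of all probe sets 3.33% fell and 5.32% rose in D10, and 1.5% fell in D5, so the 1 gene that rose and the 1 that fell in D5 are near the general rate. The count that fell was 1 without ESC replicate 1, without ESC replicate 3 or without D10 replicate 2, 3 without D5 replicate 1 and 4 without D5 replicate 2 or ESC replicate 2. Of all probe sets 960 fell in the main fit, 491 without ESC replicate 1, 617 without ESC replicate 2 and 482 without ESC replicate 3. Without D5 replicate 1 it was 681, and without D5 replicate 2 853, so the loss of calls was not confined to this list. Mtf2, which helps bring Polycomb repressive complex PRC2 to DNA, fell by 0.50 in D5 (limma adjusted p = 0.0157) and by 0.69 in D10 (0.00283). Ezh1 and Ezh2, the methyltransferases of that complex, fell by 0.61 (0.0166) and 0.41 (0.0447) in D10. Bmi1, of the other Polycomb complex, rose by 0.59 in D10 (0.0300). Of 14 noncoding RNAs of the clusters, 3 were matched on the array, Hoxd3os1, Hoxaas2 and Haglr; their group means were all below the background level and none passed.

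Of 36 other homeobox and T-box genes that mark position in connective tissue, 6 rose and 1 fell in D10 and 4 rose and 1 fell in D5; the number that rose in D10 was 3 without D10 replicate 2. Of all probe sets 5.32% rose and 3.33% fell in D10, and 2.36% rose and 1.5% fell in D5. Prrx1, a limb and craniofacial mesenchyme factor, rose by 0.92 in D5 (limma adjusted p = 0.000702) and 1.46 in D10 (8.31e-05). Tbx15, a factor of limb and skin mesenchyme, rose by 1.09 (0.00460) and 1.38 (0.00107). Otx2, a head and epiblast factor that is active without Hox genes in the front of the embryo, fell by 1.09 in D5 (0.0170) and by 1.07 in D10 (0.0156).

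More of the fibroblast list passed the test than of the Hox genes. Of 40 fibroblast and stroma genes, 38 rose in D10 with a median of 1.32 and 28 in D5 with a median of 0.70, and none fell. Beside them, 5 and 0 of the 39 Hox genes rose, with medians of 0.25 and 0.08. Of all probe sets 5.32% rose in D10 and 2.36% in D5. Between D10 and D5, 9 of the 40 rose, and 0.194% of all probe sets. Both lists were chosen with earlier results of these data known, so these counts do not test one list against the other. On the ESC arrays the list median was 6.31 to 6.49 for the fibroblast genes and 3.53 to 3.75 for the Hox genes. The Hox genes thus lay nearer the background level, where changes are harder to see. The log2 of the summed level of the 40 fibroblast genes was 12.56 to 12.74 in ESC, 13.27 to 13.40 in D5 and 13.80 to 13.85 in D10. In ESC 38 of the 40 already had a mean above the background level. Efemp1, an elastic fibre protein, rose by 2.22 in D10 (limma adjusted p = 2.2e-05), Thy1, a surface marker of fibroblasts, by 1.99 (3.37e-05), Thbs1, a matricellular protein, by 1.92 (0.000174) and Postn, another, by 1.75 (0.000266). The part of the fibroblast genes, or of the feeder cells, in the Hox values was not tested.

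The stem cell markers stayed high, with 12 of 12 above the background level in every group. Of these 12, 5 fell in D5 and 4 in D10, with medians of -0.18 and -0.24, where 1.5% and 3.33% of all probe sets fell. Fgf4, a growth factor of the inner cell mass, fell by 0.81 in D10 (limma adjusted p = 0.00805) and Tdgf1, a Nodal co-receptor, by 0.71 (0.00234). Dppa5a fell by 0.37 in D5 (0.0346) and by 0.47 in D10 (0.0110), and Nanog by 0.43 in D5 (0.0156). In D10 Nanog had a change of -0.18 without passing (limma adjusted p = 0.244). The log2 of the summed level of the 12 was 13.54 to 13.61 in ESC, 13.18 to 13.27 in D5 and 13.14 to 13.17 in D10.

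Of 14 blood cell markers, which the marrow could have brought along, 4 had a mean above the background level in ESC, 3 in D5 and 3 in D10. None rose in D5 or D10, where 2.36% and 5.32% of all probe sets rose, so for 14 genes this is near the general rate. Laptm5, a lysosomal protein of blood cells, fell by 1.29 in D10 (limma adjusted p = 0.000734), and Ptprc, the pan-leukocyte antigen, named here outside the rule, read 2.64 to 3.12 on all 9 arrays, below the background level. The log2 of the summed level of the 14 was 8.38 to 8.49 in ESC, 8.05 to 8.24 in D5 and 7.71 to 7.81 in D10; Laptm5 alone had means of 7.67, 7.18 and 6.38, and the median change of the list in D10 was -0.09. Of 8 endothelial markers, Kdr, a receptor for vascular endothelial growth factor, and Cdh5, a junction cadherin, passed in D10 with 0.62 (0.0165) and 0.52 (0.0243) from ESC arrays below the background level, and Tek, an angiopoietin receptor, fell by 0.96 in D5 (0.00952) and by 1.08 in D10 (0.00451). The D10 means were at least 1.22-fold and 1.16-fold above that level for Kdr and Cdh5. Of all probe sets 5.32% rose and 3.33% fell in D10, and 1.5% fell in D5. The log2 of the summed level of the 8 was 7.75 to 7.96 in ESC, 7.53 to 7.66 in D5 and 7.73 to 7.76 in D10.

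**Figure D4:**
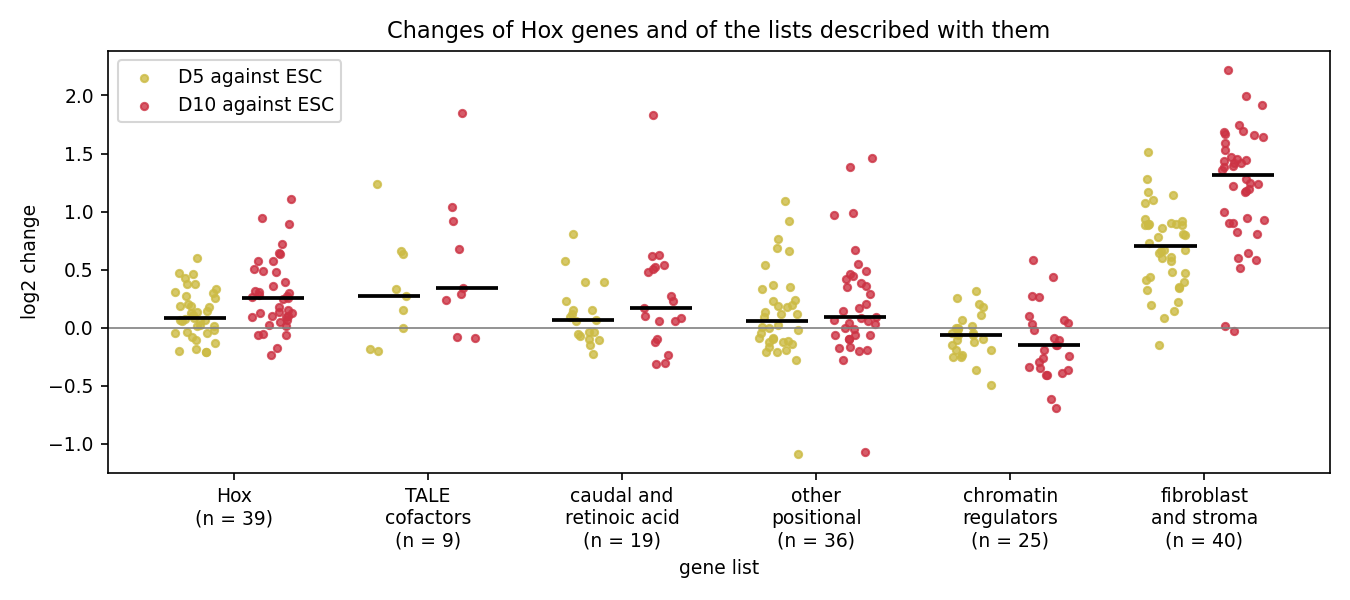
Log2 change of each gene of the Hox set and of the other lists in D5 and in D10 against ESC, with a black line at each list's median. The fibroblast genes centre on 0.70 in D5 and 1.32 in D10, the Hox genes on 0.08 and 0.25.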

How the data were processed

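Biotin-labelled target was made from total RNA of 9 mouse cultures and hybridised to Affymetrix whole-transcript arrays, per the labels' protocols. The deposited values are log2 values made by the authors. The submitters' processing notes name MAS5, without a version; the normalization between arrays is not stated in the material used here. Both log2 tables were the same in every value. The authors' deposited short table holds 461 selected probe sets, with mean intensity values on a linear scale that match the log2 values to within 0.00135%. Each comparison there has a ratio (fold) and a p-value by the authors, which entered no test here.

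Groups came from the sample titles, and table columns were tied to samples through the opening lines of the table and the design text. Group means were fitted with lmFit and eBayes of limma 3.58.1, run in R 4.3.3, to all 28853 probe sets, with no filter. The fit held 8 samples, since D10 replicates 1 and 3 were averaged, and had 5 residual degrees of freedom plus 3.56 from the prior. P-values are two-sided, adjusted by Benjamini-Hochberg over all probe sets, with a threshold of 0.05. Arrays have no read depth, so the number of arrays limits the precision. The fit was tested on simulated data.

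The Hox genes and the 9 other lists were chosen with earlier results of these data known. Values on every array are given for Hox genes past the test in any comparison, and up to 4 members past the test are named per other list, those with the largest change; some that the rule names are not reported here. Noncoding RNAs were matched by symbol or older symbol. Promoters are RefSeq's, build GRCm38.p6. The alternatives were median centring, quantile normalization, leaving out the 30% dimmest probe sets, robust estimation with an intensity trend, a fit of only the 2 groups compared, all 9 arrays counted separately, a replicate block, another choice of probe set, and each array left out in turn. The interquartile range of each array as a covariate was added after seeing the data.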

Additional observations from a re-analysis of the deposited data

Results flagged for a closer look

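For 4 of the named genes outside the Hox clusters, among 62 probe sets in all, the change against ESC differed between the 2 re-derived groups by the test of the difference itself (limma, D10 against D5, both set against the same ESC arrays). Crabp1, a retinoic acid binding protein, rose by 1.03 more on the log2 scale in D10 than in D5 (adjusted p = 0.0121). The difference was 0.71 for Efemp1 (adjusted p = 0.0463), 1.03 for Thbs1 (adjusted p = 0.0463) and 0.71 for Thy1 (adjusted p = 0.0457), all of the fibroblast list. In each of these genes every D10 array lay above every D5 array. No Hox gene passed that test. The 62 probe sets were 4 without D10 replicate 2, which leaves 1 D10 sample.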

How the results depend on the processing

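The count of Hox genes that rose in D10 against ESC was 5, and 8 without the 30% dimmest probe sets, 9 with all 9 arrays counted separately and 8 with a replicate block on those 9 arrays; leaving out 1 array at a time gave 2 to 5. Calls over all probe sets went up in these settings too. In the main fit 1536 of 28853 probe sets rose in D10 against ESC. Without the 30% dimmest it was 1670 of 20197, with all 9 arrays counted separately 2221 of 28853, and with the block 1887. The higher Hox counts therefore do not by themselves show a gain particular to Hox genes. The filter may also drop dim Hox genes, so its count may be out of fewer genes. Replicate numbers do not pair the samples: over 9 same-numbered pairs the deviations from the group means correlated at -0.379 to 0.298, with 2 pairs over 0.1, and 1 array correlated best with its own number. For D5 against ESC the count of 0 became 1 without the 30% dimmest probe sets, and 0 to 1 over arrays left out, the 1 being Hoxd13 without D5 replicate 1. For D10 against D5 it became 1, Hoxd13 (adjusted p = 0.0299), with all 9 arrays counted separately, and stayed 0 with any 1 array left out.

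With 1 array left out, the median Hox change ran from 0.086 to 0.29 in D10 against ESC, from 0.034 to 0.13 in D5 against ESC and from 0.091 to 0.19 in D10 against D5; the lowest values for both D10 comparisons came without D10 replicate 2, where D10 is 1 sample, and D10 against ESC was 0.17 without ESC replicate 1. Over 18 alternatives, Hoxd13 and Hoxc8 passed in all in D10 against ESC (highest adjusted p 0.0174 and 0.0482), Hoxb9 and Hoxa11 in 17 and Hoxa5 in 13, which was also lost with only the 2 groups compared. Hoxa9, Hoxb2, Hoxc6, Hoxc10 and Hoxd10 passed under some alternatives. The interquartile range as a covariate, chosen after seeing the data, gave counts of 0, 5 and 0 for D5, D10 and D10 against D5. Genes above background were 33, 36 and 36 at the 90th percentile and 4, 7 and 9 at the 99th. Choosing the probe set by its interquartile range changed nothing, since each Hox gene has 1.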
